A study of Mus musculus with 6 samples.

Results

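Metallothioneins and the genes that sense and move zinc were examined in mouse CD4+ T cells activated with or without CpdA, which the series' design describes as an agonist of Gpr120, a fatty acid receptor. The set holds 8 genes chosen by name from the 21139 genes of the deposited table: the metallothionein genes Mt1, Mt2 and Mt3, the zinc sensor gene Mtf1, the zinc exporter genes Slc30a1 and Slc30a4, and the zinc importer genes Slc39a6 and Slc39a10. All 8 were in the table and all 8 passed the filter on low counts. They were picked with their CpdA and medium counts known, so their values are a description and no p-value is given for any of them.

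The cells came from the spleen of C57BL/6J mice and were activated for 2 days by anti-CD3 and anti-CD28, antibodies that stand in for antigen and for the second signal a T cell needs. In 3 libraries (CpdA replicates 1 to 3) the cells received CpdA at 20 µM, a unit the labels write as µm, and in the other 3 (medium replicates 1 to 3) they had medium alone. Cells of all 6 libraries shared a medium with fetal bovine serum, pyruvate and 2-mercaptoethanol. The labels give no age or sex, do not say whether a group's libraries came from separate cultures or animals, and name no vehicle for the medium group.

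Metallothioneins are small proteins packed with cysteines that bind zinc and copper and release them again. When free zinc in a cell rises, the zinc finger protein MTF1 binds metal response elements in the promoters of Mt1, Mt2 and Slc30a1 and switches these genes on, while Slc39a10 is one of the genes reported to be repressed by MTF1 in mice. Transporters of the SLC30 family (ZnT) carry zinc out of the cytosol, into vesicles or out of the cell, and those of the SLC39 family (ZIP) carry it into the cytosol. In T cells, zinc that enters after receptor engagement is known to modulate signalling, and metallothionein genes are induced on activation and in tumour-infiltrating T cells of mice.

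The promoter windows of the 2 abundant metallothionein genes and of the zinc exporter Slc30a1 are shown because these are textbook targets of MTF1. Each runs from 250 bases before to 50 bases after the RefSeq start (build GRCm38.p6), and capitals mark matches to the core letters of the metal response element, TGCACNC or TGCGCNC, on either strand. The Mt1 window is chr8:94178839-94179138 on the plus strand, the Mt2 window chr8:94172368-94172667 on the plus strand and the Slc30a1 window chr1:191906531-191906830 on the plus strand.
Mt1: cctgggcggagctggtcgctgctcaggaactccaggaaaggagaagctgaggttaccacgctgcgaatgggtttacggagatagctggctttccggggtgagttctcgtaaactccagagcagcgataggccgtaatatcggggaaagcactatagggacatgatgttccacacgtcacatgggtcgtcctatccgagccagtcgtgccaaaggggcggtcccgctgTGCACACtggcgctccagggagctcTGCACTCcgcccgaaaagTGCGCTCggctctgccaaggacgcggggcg
Mt2: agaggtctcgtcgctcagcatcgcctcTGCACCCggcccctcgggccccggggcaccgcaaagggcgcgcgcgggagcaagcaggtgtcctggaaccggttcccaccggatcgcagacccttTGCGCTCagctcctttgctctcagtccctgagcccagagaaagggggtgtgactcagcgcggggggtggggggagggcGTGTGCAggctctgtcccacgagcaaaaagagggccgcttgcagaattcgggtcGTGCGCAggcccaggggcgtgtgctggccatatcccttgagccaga
Slc30a1: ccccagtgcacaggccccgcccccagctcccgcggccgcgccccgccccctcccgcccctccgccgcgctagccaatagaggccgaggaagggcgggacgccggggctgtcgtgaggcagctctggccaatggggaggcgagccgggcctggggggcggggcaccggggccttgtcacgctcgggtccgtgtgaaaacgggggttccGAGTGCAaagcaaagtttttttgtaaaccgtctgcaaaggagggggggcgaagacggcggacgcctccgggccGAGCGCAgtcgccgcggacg

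Mt1 held 3 matches, all on the strand of the gene, at bases -23, 3 and 21 from the start. Mt2 held 4 matches, 2 on each strand. Slc30a1 held 2 matches, both on the opposite strand, so that the printed strand reads GAGTGCA and GAGCGCA. Of 32851 RefSeq promoter windows of this length, 25.7% held at least 1 match, 7.11% at least 2, 1.97% at least 3 and 0.517% at least 4. Among the other members, Slc30a4 held 3 matches, Mt3 held 1, and Mtf1 and both windows of Slc39a10 held 0, which says only that these letters are not in these windows. GC content differed as well, at 60.7% for Mt1, 67.7% for Mt2, 73.0% for Slc30a1 and 81.7% for Slc30a4. No pair of matches overlapped among the 13 found in the members, and a match is a description of the letters, not a shown binding site.

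The RefSeq starts of Mt1 and Mt2 lie upstream of the letters TATAAA, those of the TATA box, a short element that usually sits just before a start site. In the GENCODE annotation of GRCm38, the first exon of transcript Mt1-201 holds the letters TATAAA from base 94179210 of chromosome 8, which is 72 bases past the end of the Mt1 window. The 71 bases between held 2 more matches, for 5 in all. In the first exon of Mt2-201, TATAAA begins at base 94172753, 86 bases past its window, and the 85 bases between held 3 more matches, for 7 in all. GENCODE also gives shorter Mt1 transcripts that start at 94179211 and 94179241, at or past those letters. The shares of promoters given above are for windows of 300 bases. They do not apply to the totals of 5 and 7, and no share was computed for such longer stretches.

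Library totals ran from 21407172 to 25952169 counts for CpdA and from 20247761 to 23640735 counts for medium, and within a group no pair of libraries agreed within sampling noise (chi-square over its degrees of freedom between 2.17 and 4.12). The T cell marker list (Cd4, Cd3e, Cd3d, Cd3g, Cd28, Cd5 and Trac) summed to 1890 to 1930 CPM (counts scaled to the library total) with CpdA and 1980 to 2010 CPM in medium. Markers of other cell types were low, with B cell markers at 24.2 to 28.2 CPM with CpdA and 22.2 to 27.5 CPM in medium, and CD8, NK, erythroid, stromal, macrophage and neutrophil lists under 10 CPM in every library. The CD4 T cell, macrophage and neutrophil sums did not overlap between the groups, with macrophage markers at 0.42 to 0.635 CPM with CpdA and 0.719 to 1.01 CPM in medium, and neutrophil markers (Ly6g and Cxcr2, 2 of 4 listed) at 5.93 to 6.35 CPM with CpdA and 7.35 to 8.3 CPM in medium. Of the 7 T cell markers 6 had lower means with CpdA, while Cd5 averaged 638 CPM with CpdA and 573 CPM in medium. In the macrophage list only Itgam was lower with CpdA (0.276 CPM with CpdA and 0.628 CPM in medium), and Lyz2, Csf1r and Cd14 had slightly higher means with CpdA, all near or below 0.1 CPM. The part of these cells in the results was not tested. Among all tested genes, 43.9% did not overlap between the groups, so nothing is read from the marker sums that did not overlap. The NK marker Klrb1c was at 0 in every CpdA library, and the erythroid marker Hbb-bt and the stromal marker Pdgfra were at 0 in every medium library. In these bulk libraries, fewer cells of a type and less RNA per cell cannot be told apart.

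Metallothionein transcripts were abundant in these cells and were lower with CpdA. Mt1 and Mt2 together made up 308.6, 330.3 and 294.0 CPM in CpdA replicates 1 to 3, against 527.3, 485.8 and 536.2 CPM in medium replicates 1 to 3. The group means were 311 ± 18.3 CPM with CpdA and 516 ± 26.9 CPM in medium (SD, n = 3), a ratio of 0.602. The highest CpdA library lay far under the lowest medium library.

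Mt1 (chromosome 8, 94179089 to 94180325, plus strand) is the most abundant member. It had 221.3, 233.3 and 207.7 CPM in CpdA replicates 1 to 3, against 367.5, 335.3 and 372 CPM in medium replicates 1 to 3, from 4738 to 6054 counts with CpdA and 7442 to 8505 counts in medium. Its log2 fold change, CpdA over medium, was -0.71 ± 0.04 (SE), a fold of 0.612. The groups did not overlap, and the spread within a group was close to that of a typical gene (within-group SD of log2 CPM 0.0858, at or above 51.4% of tested genes).

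Mt2 (chromosome 8, 94172618 to 94173567), the neighbouring gene whose product binds metals in the same way, had 87.3, 97.1 and 86.3 CPM in CpdA replicates 1 to 3, against 159.7, 150.5 and 164.1 CPM in medium replicates 1 to 3. Its log2 fold change was -0.82 ± 0.04 (SE), a fold of 0.568. In both genes CpdA replicate 2 was the highest of the CpdA libraries and medium replicate 2 the lowest of the medium libraries. Replicate 2 of each group thus lay nearest to the other group. These libraries were also the closest pair between the groups across genes, with a chi-square over its degrees of freedom of 10.7. The other pairs between the groups lay at 11 to 18.1, so this pattern is not particular to single genes.

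The ratio of Mt1 to Mt2 counts was 2.54, 2.4 and 2.41 in CpdA replicates 1 to 3, against 2.3, 2.23 and 2.27 in medium replicates 1 to 3. These ratios did not overlap between the groups: Mt2 was lower by a larger factor than Mt1. The 2 genes are paralogs: the longest identical run shared by the GENCODE transcripts Mt1-201 and Mt2-201 is 20 bases, and 72.0% of their aligned bases are identical. How far short reads could be shared between them was not tested. With the counts of both genes summed to 1 gene the log2 fold change was -0.74 ± 0.04 (SE).

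Mt3 (chromosome 8, 94152607 to 94154148), a metallothionein best known from neurons, was scarce. It had 59, 72 and 57 counts in CpdA replicates 1 to 3, against 77, 79 and 114 counts in medium replicates 1 to 3, or 2.6 ± 0.291 CPM with CpdA and 4.04 ± 0.849 CPM in medium (SD, n = 3). Its log2 fold change was -0.65 ± 0.18 (SE). The groups did not overlap, but medium replicate 3 stood above the other 2 medium libraries, and without it the log2 fold change was -0.46 ± 0.20 (SE). Counting error alone is about 11.4% of a Mt3 value at its mean count, against 1.23% for Mt1. The longest identical run shared by the GENCODE transcripts Mt1-201 and Mt3-201 is 27 bases, and 66.2% of their aligned bases are identical. Whether reads of the far more abundant Mt1 were counted for Mt3 was not tested.

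**Figure D1:**
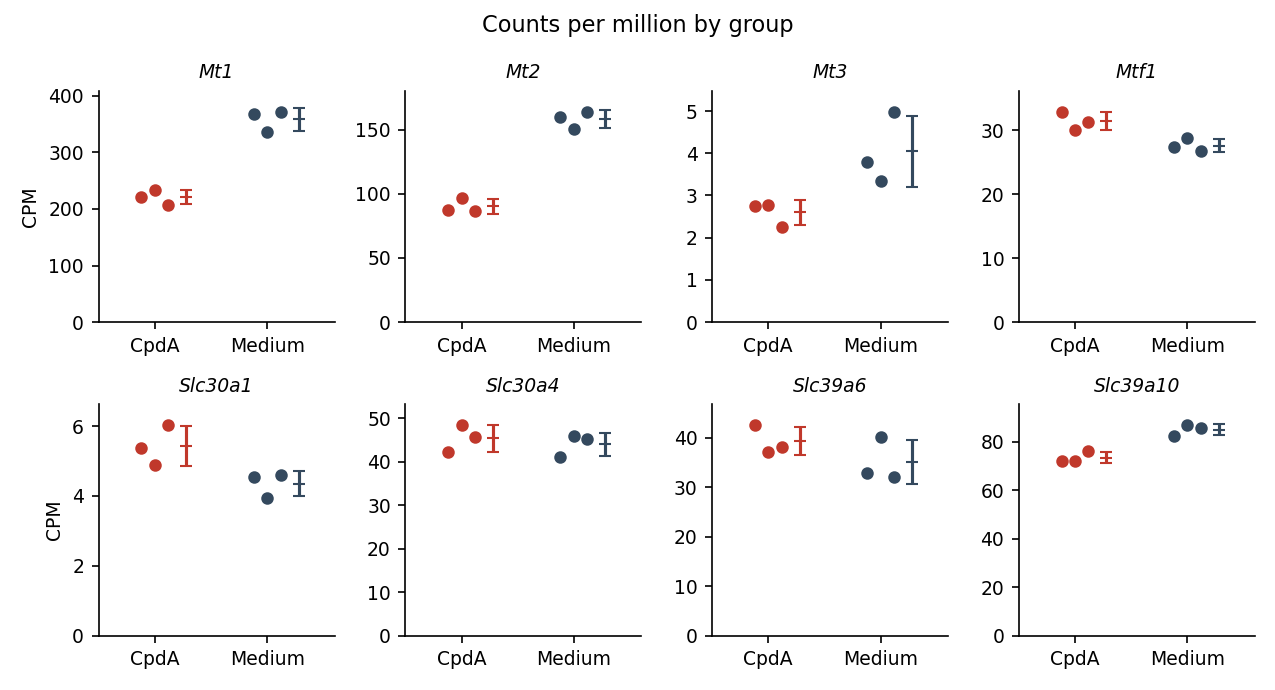
CPM (linear axes from 0) of the 8 members, with 1 dot for each library and the mean ± SD of 3 libraries beside the dots, for CpdA on the left and medium on the right of each panel. Mt1, Mt2, Mt3 and Slc39a10 lie lower with CpdA without overlap, Mtf1 and Slc30a1 lie higher without overlap, and Slc30a4 and Slc39a6 overlap.

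The zinc sensor and the cell surface exporter lay on the other side. Mtf1 (chromosome 4, 124802104 to 124849800) had 32.9, 30 and 31.3 CPM in CpdA replicates 1 to 3, against 27.4, 28.7 and 26.7 CPM in medium replicates 1 to 3. Its log2 fold change was 0.17 ± 0.06 (SE), a fold of 1.13, and the CpdA libraries all stood above the medium libraries, with CpdA replicate 2 and medium replicate 2 nearest to each other. Slc30a1 (chromosome 1, 191906767 to 191913247), the exporter that removes zinc across the plasma membrane, had 115, 127 and 152 counts in CpdA replicates 1 to 3, against 92, 93 and 105 counts in medium replicates 1 to 3. This corresponds to 5.43 ± 0.571 CPM with CpdA and 4.36 ± 0.367 CPM in medium (SD, n = 3) and a log2 fold change of 0.31 ± 0.14 (SE). The Slc30a1 libraries did not overlap, with CpdA replicate 2 at 4.89 CPM and medium replicate 3 at 4.59 CPM as the nearest values, and counting error alone is about 9.37% of a value.

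Slc30a4 (chromosome 2, 122681233 to 122702663), which loads zinc into endosomal vesicles and is mutated in lethal milk mice, had 42.2, 48.4 and 45.6 CPM in CpdA replicates 1 to 3, against 41.04, 45.9 and 45.2 CPM in medium replicates 1 to 3. The groups overlapped, and the log2 fold change was 0.04 ± 0.06 (SE). Its sign was not stable, at -0.01 without CpdA replicate 2 and also without medium replicate 1.

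Of the importers, Slc39a10 was lower with CpdA and Slc39a6 was not separated. Slc39a10 (chromosome 1, 46807544 to 46892852), an importer needed by B cells of mice, had 72.2, 72.02 and 76.02 CPM in CpdA replicates 1 to 3, against 82.5, 86.8 and 85.4 CPM in medium replicates 1 to 3. Its log2 fold change was -0.22 ± 0.04 (SE), a fold of 0.859, with the smallest within-group spread of the members (SD of log2 CPM 0.0394). Slc39a6 (chromosome 18, 24579881 to 24603817), an importer reported at the contact zone of activated human T cells, had 42.6, 37.2 and 38.2 CPM in CpdA replicates 1 to 3, against 32.9, 40.1 and 32 CPM in medium replicates 1 to 3. Medium replicate 2 lay within the CpdA range, and the log2 fold change was 0.15 ± 0.07 (SE), or 0.26 ± 0.07 without medium replicate 2.

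In the fit across all 13507 genes tested, 5 of the 8 members passed an adjusted p of 0.05, 4 of them lower (Mt1, Mt2, Mt3 and Slc39a10) and 1 higher (Mtf1), where 33.2% of all tested genes passed (16.5% higher and 16.7% lower). The libraries of the groups did not overlap for 6 of the 8 members and for 43.9% of all tested genes. Without medium replicate 3, Mt3 and Mtf1 missed this threshold, and Mtf1 also missed it without CpdA replicate 1, CpdA replicate 3 or medium replicate 1, while Slc39a6 passed without CpdA replicate 2 or medium replicate 2. Since the members were chosen with this contrast known, nothing is read from either count. The median log2 fold change was -0.09 over the members and 0.0004 over all tested genes. In order of log2 fold change from the lowest, Mt2 stood at place 274, Mt1 at 392 and Mt3 at 500 of the 13507 genes.

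Compared per length, in FPKM (fragments scaled to gene length and library total) as deposited, the members fell into 2 tiers. Mt1 was at 408.9 ± 23.65 FPKM with CpdA and 663.5 ± 37.15 FPKM in medium, and Mt2 at 162 ± 10.7 FPKM with CpdA and 284 ± 12.5 FPKM in medium (SD, n = 3). Averaged over the 6 libraries, only 0.903% of tested genes had a higher FPKM than Mt1 and 1.87% a higher one than Mt2. Slc39a10 followed at 13.35 ± 0.413 FPKM with CpdA and 15.4 ± 0.401 FPKM in medium, then Slc39a6 at 10.1 ± 0.737 FPKM with CpdA and 9.02 ± 1.15 FPKM in medium, and Slc30a4 at 8.32 ± 0.569 FPKM with CpdA and 8.07 ± 0.483 FPKM in medium. Mt3 had 4.83 ± 0.541 FPKM with CpdA and 7.52 ± 1.58 FPKM in medium, and Mtf1 had 4.11 ± 0.191 FPKM with CpdA and 3.62 ± 0.136 FPKM in medium. Slc30a1 was lowest, at 1.04 ± 0.109 FPKM with CpdA and 0.831 ± 0.07 FPKM in medium.

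The order of the means was the same in both groups. With CpdA, Mt3 and Mtf1 were the only neighbours in that order whose libraries overlapped. In medium, Slc39a6 overlapped Slc30a4 and Slc30a4 overlapped Mt3, so these neighbours did not differ beyond their spread. The 3 metallothionein genes summed to 576 ± 34 FPKM with CpdA and 955 ± 50.7 FPKM in medium, a ratio of 0.603. All SLC30 genes in the table, members included, summed to 66.4 ± 1.48 FPKM with CpdA and 68.6 ± 1.12 FPKM in medium, with overlapping libraries. All SLC39 genes summed to 132 ± 2.23 FPKM with CpdA and 139 ± 4.58 FPKM in medium, where the highest CpdA library (134.7) lay just under the lowest medium library (135.9). The summed transporter levels thus differed between the groups by far less than the metallothionein sum did. The metallothionein genes were chosen with this contrast known, so nothing is read from that comparison.

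**Figure D2:**
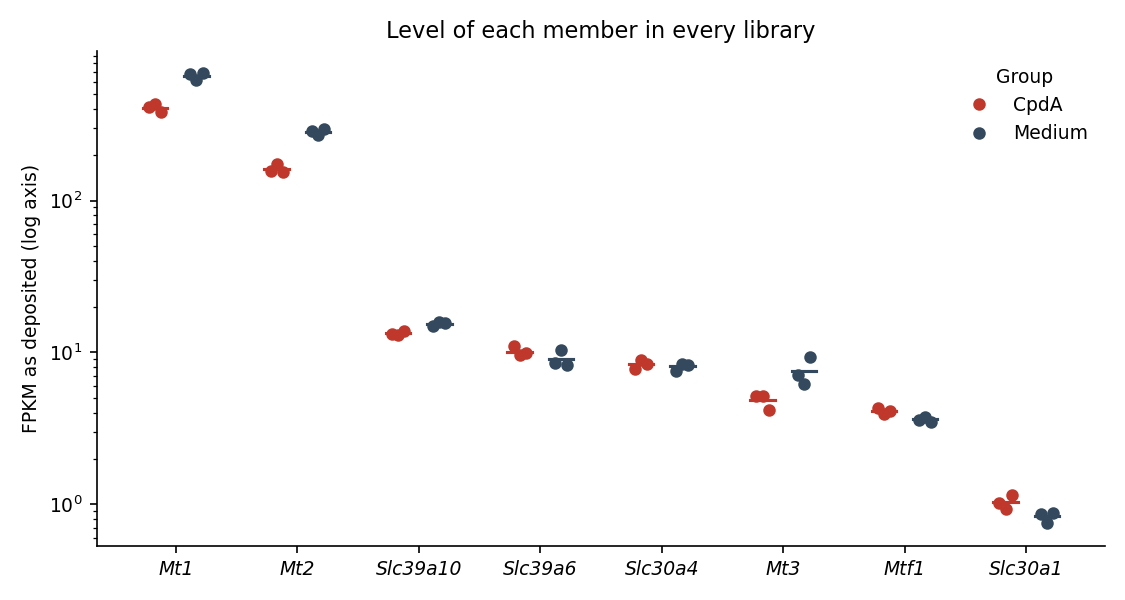
Deposited FPKM of the 8 members on a log axis, 1 dot for each library with a line at the group mean, CpdA left and medium right within each gene. Mt1 and Mt2 stand at 155 to 689 FPKM, above every library of any other member, and Slc30a1 stands near 1 FPKM.

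The other genes of the zinc transporter families, none of them members, were tested in the same fit (edgeR's quasi-likelihood test, p-values adjusted over all genes). Of the 10 SLC30 genes, 8 are not members, 7 of these were in the table and 5 were tested: 3 fell and 1 rose. Slc30a9, a transporter of mitochondria, fell to 115 ± 0.353 CPM with CpdA, against 136 ± 3.5 CPM in medium (log2 fold change -0.25 ± 0.04 SE, adjusted p = 3.58e-07). Slc30a7, which loads zinc into the Golgi, fell to 77.5 ± 4.34 CPM with CpdA, against 90.8 ± 6.05 CPM in medium (-0.23 ± 0.05, adjusted p = 0.000115). Slc30a2, a vesicular transporter known from the mammary gland, fell as well, at a low level, to 2.66 ± 0.172 CPM with CpdA, against 3.96 ± 0.548 CPM in medium (-0.58 ± 0.17, adjusted p = 0.00647); without medium replicate 1 it missed the threshold (-0.48, adjusted p = 0.0544).

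Slc30a5, which supplies zinc to enzymes of the early secretory pathway, rose to 66.4 ± 2.78 CPM with CpdA, against 57.5 ± 2.71 CPM in medium (log2 fold change 0.20 ± 0.05 SE, adjusted p = 0.00104). Its partner in that pathway, Slc30a6, had 14.9 ± 0.243 CPM with CpdA and 14.7 ± 0.409 CPM in medium and did not pass (0.004, adjusted p = 0.98). Slc30a3 and Slc30a10 were too low to test, at 0.257 and 0.044 CPM with CpdA and 0.438 and 0.113 CPM in medium.

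Of the 14 SLC39 genes, 12 are not members and 11 were tested: 2 fell, 0 rose and 9 did not pass. Slc39a14, which imports zinc, iron and manganese, fell to 79.8 ± 3.15 CPM with CpdA, against 94.6 ± 0.965 CPM in medium (log2 fold change -0.25 ± 0.04 SE, adjusted p = 3.57e-06). Slc39a13, an intracellular transporter of the secretory pathway, fell to 12.2 ± 1.45 CPM with CpdA, against 14.9 ± 1.25 CPM in medium (-0.30 ± 0.09, adjusted p = 0.00995). It missed the threshold without CpdA replicate 2 (-0.21, adjusted p = 0.102) and without medium replicate 1 (-0.23, adjusted p = 0.0817).

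Slc39a1, a plasma membrane importer and at 47.3 FPKM with CpdA and 50.2 FPKM in medium the SLC39 gene with the highest level per length, lay at the threshold (log2 fold change -0.10 ± 0.04 SE, adjusted p = 0.051). It passed without CpdA replicate 2 (adjusted p = 0.0412) and without medium replicate 1 (adjusted p = 0.0201). Slc39a8, another importer of zinc and manganese, had 31.9 ± 1.54 CPM with CpdA and 31.7 ± 1.82 CPM in medium (adjusted p = 0.958). Slc39a3, Slc39a4, Slc39a9 and Slc39a11 had log2 fold changes from -0.06 to 0.09 and did not pass, nor did Slc39a2, Slc39a5 and Slc39a7, which averaged below 3 CPM in both groups. The median log2 fold change was -0.23 over the 5 tested non-member SLC30 genes and -0.03 over the 11 tested non-member SLC39 genes. It was 0.0004 over all tested genes. Both family medians leave out the members Slc30a1 (0.31), Slc30a4 (0.04), Slc39a6 (0.15) and Slc39a10 (-0.22). With 33.2% of all tested genes called, nothing particular to either family is read from these medians and counts.

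**Figure D3:**
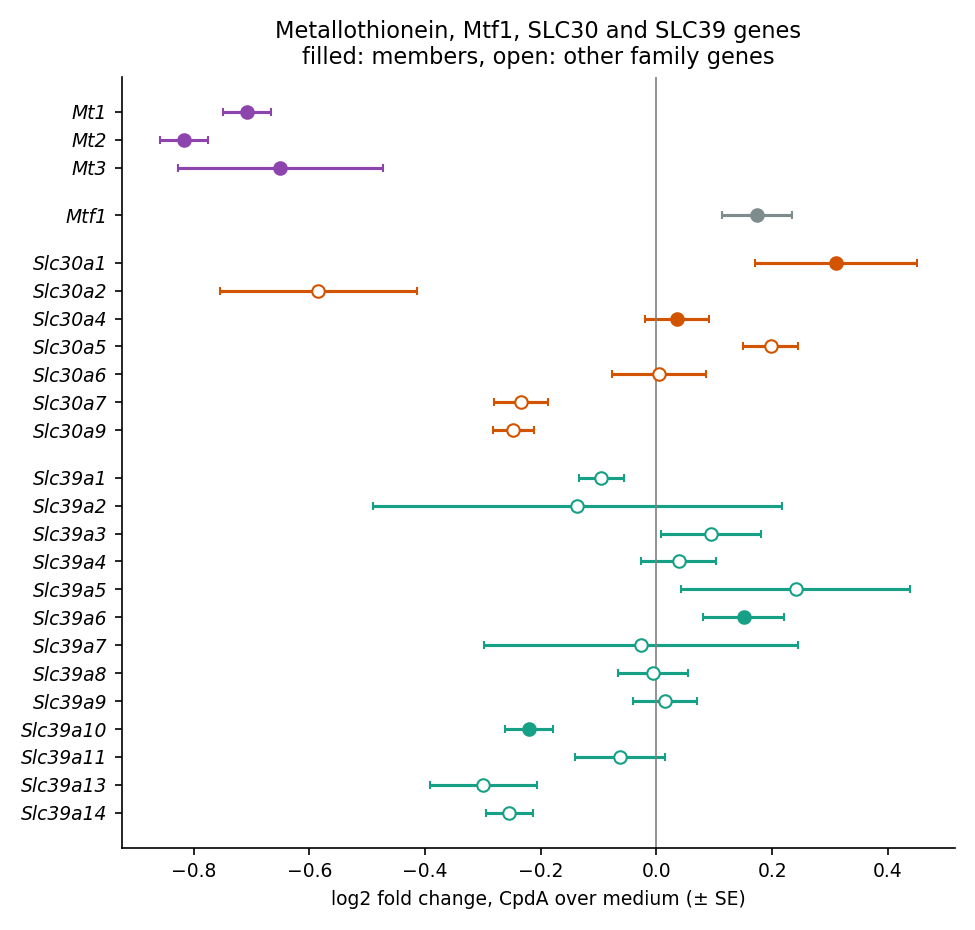
Log2 fold change, CpdA over medium, with SE bars for the 3 metallothionein genes, Mtf1 and every tested gene of the SLC30 and SLC39 families. Filled points are the 8 members, whose values are a description, and open points are the other family genes, of which Slc30a2, Slc30a7, Slc30a9, Slc39a13 and Slc39a14 fell and Slc30a5 rose.

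Mt3, Mt2 and Mt1 lie in this order on the plus strand of chromosome 8, within 27719 bases, with a gap of 18469 bases between Mt3 and Mt2 and 5521 bases between Mt2 and Mt1. Within 250 kb of the cluster 11 other genes were in the table and 7 were tested, of which 4 rose and 0 fell, beside 16.5% higher and 16.7% lower among all tested genes, and nothing particular to the neighbourhood is read from these few genes. Nup93, a nuclear pore gene, had 82.7 CPM with CpdA and 63.8 CPM in medium (log2 fold change 0.36, adjusted p = 1.58e-08). Herpud1, a gene of endoplasmic reticulum stress, rose by 0.23 (adjusted p = 5.08e-05). The noncoding gene 9330175E14Rik rose by 0.26 (adjusted p = 0.0468) and missed the threshold when any 1 library other than CpdA replicate 3 was left out (adjusted p from 0.0693 to 0.285). The nearest tested gene on the Mt3 side, Bbs2, lay at -0.11 on the log2 scale (adjusted p = 0.608), and Nudt21 and Ogfod1 did not pass (adjusted p = 0.96 and 0.376). In a window of 500 kb, 6 of 12 tested genes rose and 0 fell, the further ones being the immune regulator gene Nlrc5 (0.35, adjusted p = 6.44e-10) and Arl2bp (0.16, adjusted p = 0.0165).

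**Figure D4:**
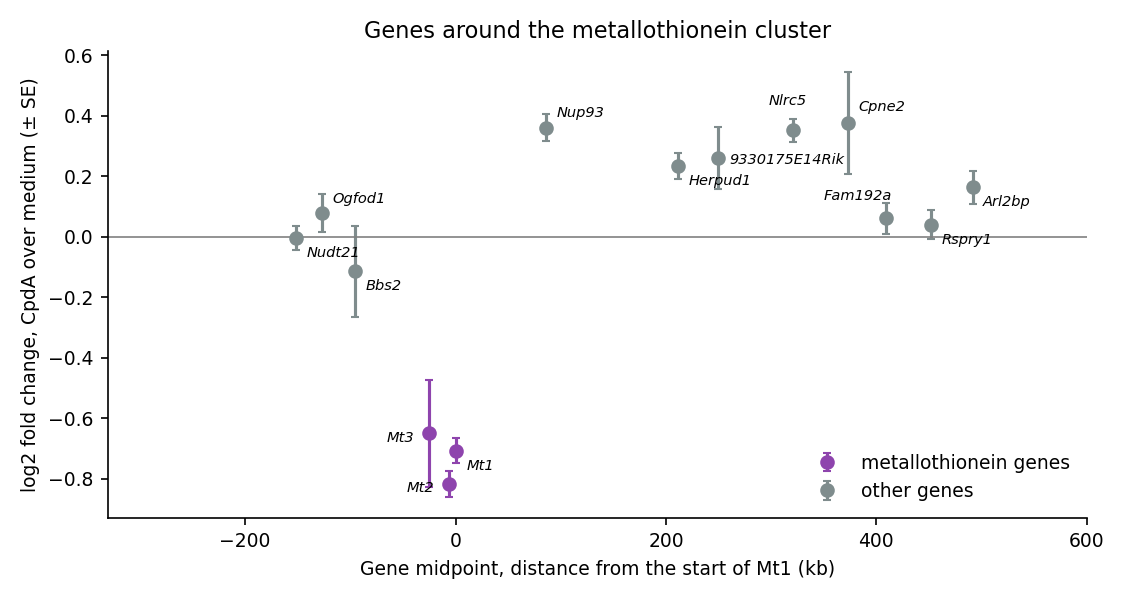
Log2 fold change, CpdA over medium, with SE bars, of the 3 metallothionein genes and of 11 of the 12 tested genes within 500 kb, by the distance of each gene's midpoint from the start of Mt1. The metallothionein genes lie between -0.82 and -0.65, and the 11 neighbours shown between -0.11 and 0.38.

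The profiles over the 6 libraries were compared between genes by the root-mean-square difference of their log2 CPM after each was centred on its mean, among the 6752 other tested genes above the median expression. The gene most like Mt2 was Gatm, which codes for an enzyme of creatine synthesis, with a difference of 0.038 log2 units, followed by Gbe1, a glycogen branching enzyme (0.0526), Espn, an actin bundling protein (0.0614), Mt1 (0.0629) and Lgals3, a galectin (0.0636). Among the 5 nearest to Mt1 were Gatm (0.0554), the nuclear receptor gene Nr4a2 (0.0597), Arhgef10 (0.0609) and the co-stimulatory receptor gene Tnfrsf9 (0.0614), with Mt2 at place 7. Gatm had 49.7, 54.5 and 45.9 CPM in CpdA replicates 1 to 3, against 90.4, 81.4 and 88.5 CPM in medium replicates 1 to 3. Its replicate 2 of each group also lay nearest to the other group. Gatm was picked for its likeness over these same libraries, so nothing is read from that shared pattern. With 6 libraries in 2 groups this measure mostly finds genes with a fold change of the same size.

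Genes of the 2 other metals that metallothioneins or MTF1 are tied to were tested next. Of 10 tested copper handling genes 3 fell, 1 rose and 6 did not pass. Both copper exporting ATPases fell: Atp7b to 14.2 ± 2.17 CPM with CpdA, against 21.7 ± 0.967 CPM in medium (log2 fold change -0.62 ± 0.08 SE, adjusted p = 2.43e-07), and Atp7a to 8.72 ± 1.04 CPM with CpdA, against 11.9 ± 1.8 CPM in medium (-0.44 ± 0.11, adjusted p = 0.00138). The copper chaperone gene Cox17 fell by 0.34 (adjusted p = 0.00933) and missed the threshold without CpdA replicate 1 (adjusted p = 0.0876) and without medium replicate 3 (adjusted p = 0.0703). Sod1, the copper and zinc superoxide dismutase, rose by 0.12 (adjusted p = 0.00116).

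Of 13 tested iron handling genes 3 rose, 2 fell and 8 did not pass. The ferritin chain genes Ftl1 and Fth1, which code for the iron store, rose by 0.14 and 0.11 (adjusted p = 0.0001 and 0.00303), as did Aco1, an iron-sensing RNA binding protein, by 0.19 (adjusted p = 0.00244). The uptake genes Tfrc, the transferrin receptor, and Slc11a2, an iron transporter, fell by 0.10 and 0.21 (adjusted p = 0.00475 and 0.00747). Ferritin genes have processed pseudogenes that may share reads.

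Of 5 tested genes reported as MTF1 targets in mice, other than the members, 1 fell, 1 rose and 3 did not pass. Ndrg1, which hypoxia also induces, fell to 127 ± 7.67 CPM with CpdA, against 176 ± 6.48 CPM in medium (log2 fold change -0.48 ± 0.04 SE, adjusted p = 9.32e-13). Gclc, the catalytic subunit of glutathione synthesis, rose by 0.14 (adjusted p = 0.0394), and this call was lost without CpdA replicate 2, CpdA replicate 3, medium replicate 1 or medium replicate 3 (adjusted p = 0.0693, 0.122, 0.17 and 0.115). Csrp1 and Sepw1 had log2 fold changes of 0.02 each (adjusted p = 0.764 and 0.707).

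Of 13 tested genes of the metal, heat and thiol stress response, 4 rose and 0 fell. Slc7a11, the cystine importer, rose to 5.24 ± 0.84 CPM with CpdA, against 3.09 ± 0.579 CPM in medium (log2 fold change 0.75 ± 0.16 SE, adjusted p = 0.000268). The heat shock protein genes Hsph1 and Hspa8 rose by 0.41 and 0.23 (adjusted p = 7.38e-12 and 9.29e-10) and the thioredoxin reductase gene Txnrd1 by 0.23 (adjusted p = 1.53e-07). Hmox1, the heme oxygenase gene that heavy metals induce, had 25.2 ± 1.92 CPM with CpdA and 25.1 ± 1.02 CPM in medium (adjusted p = 0.996), and the inducible heat shock genes Hspa1a and Hspa1b did not pass (adjusted p = 0.881 and 0.334).

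Metallothionein genes are also induced by glucocorticoids, and 8 glucocorticoid-induced genes were tested, of which 3 fell and 1 rose. Per1, a clock gene, fell by 0.38 (adjusted p = 1.21e-10), Ddit4, which hypoxia also induces, by 0.34 (adjusted p = 2.64e-10) and Zbtb16 by 0.74 (adjusted p = 0.0062), while the kinase gene Sgk1 rose by 0.52 (adjusted p = 0.00145). Zbtb16 missed the threshold without medium replicate 1 (adjusted p = 0.0512) and without medium replicate 3 (adjusted p = 0.0721). Fkbp5 and Tsc22d3, standard reporters of the glucocorticoid receptor, had 85.5 and 25.5 CPM with CpdA and 83.7 and 27.5 CPM in medium and did not pass (adjusted p = 0.797 and 0.154). The median log2 fold change was 0.009 over the copper genes, -0.06 over the iron genes, 0.02 over the MTF1 targets, 0.13 over the stress genes and -0.11 over the glucocorticoid-induced genes. With 33.2% of all tested genes called, nothing particular to a list is read from its count.

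**Figure D5:**
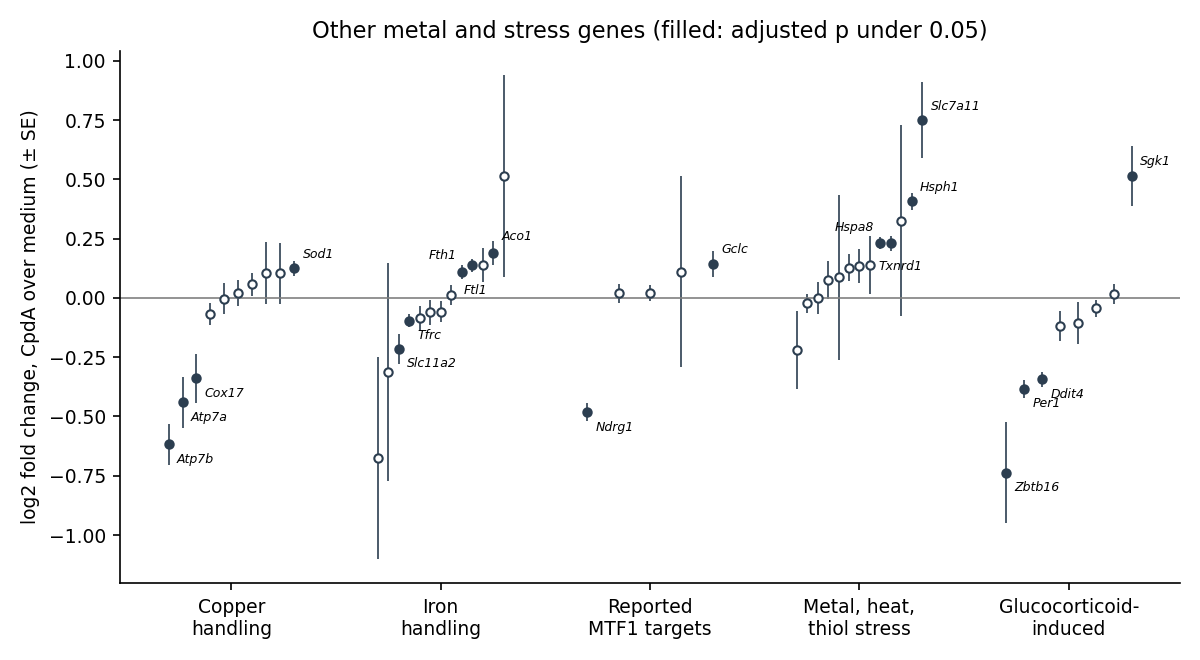
Log2 fold change, CpdA over medium, with SE bars, of the tested genes of 5 lists, ordered by value within each list. Filled points passed an adjusted p of 0.05: Atp7b, Atp7a and Cox17 fell among copper genes, and 4 stress genes rose, up to 0.75 for Slc7a11.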

How the data were processed

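Gene expression was measured in 6 libraries, 3 with CpdA and 3 with medium alone, grouped by the labels. The deposited table gives raw read counts per gene, with no normalization per the file headers, and FPKM values that the authors computed; scaling the counts to gene length and library total returned each FPKM to within 1.86e-07 of itself. CASAVA 1.8 and the builds GRCm38 and mm10 stand in the submitters' processing notes. For the aligner, counter, annotation, strand setting and read length, nothing is stated in these sources. All value columns were tied to a sample.

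Counts were tested in R 4.3.3 with the quasi-likelihood test of edgeR 4.0.16 (TMM, robust, no covariates) on 13507 genes kept by filterByExpr (minimum count 10, minimum total 15). P-values were adjusted by Benjamini-Hochberg over these genes and called at 0.05; SE is the log2 fold change divided by the root of the F statistic. As nothing says the libraries came from separate cultures or animals, p-values reflect the spread among these libraries alone, possibly a technical one. CPM uses library totals; profiles used log2 CPM with a prior count of 2.

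The members and all gene lists were chosen with earlier results of these data known, and support nothing by themselves. Every member is named, with every list gene past the threshold, all tested transporters and the 5 genes most like Mt1 and Mt2. Mt4, Slc30a8, Slc39a12, Sco2, Heph, S100a8 and S100a9 were not analysed here, and 1 neighbour of the cluster and 1 gene most like Mt1 are not reported here. Promoter sequences are RefSeq's (GRCm38.p6): 7 of the 8 members had at least 1 window that was used, and Slc39a6 had none. Alternatives were other scalings (DESeq2's size factors, library totals), filters (none, or a CPM of 5 in 3 libraries), DESeq2 1.42.0, limma-voom (limma 3.58.1), the replicate number as a block, each library left out, Mt1 and Mt2 summed, TPM and a wider window.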

Additional observations from a re-analysis of the deposited data

How the results depend on the processing

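Over all genes, 3645 (DESeq2) to 4538 (library totals alone) genes passed, against 4483 in the main fit. Mt1, Mt2 and Slc39a10 passed under all 13 alternatives fitted to each, with log2 fold changes from -0.75 to -0.66, from -0.87 to -0.78 and from -0.24 to -0.20. Mt3 passed under 11 of 12 (not without medium replicate 3), Mtf1 under 8 of 13, Slc39a6 under 3 of 13, and Slc30a1 and Slc30a4 under 0 of 12 and 0 of 13. Of the 8 members, 3 to 6 passed with 1 library left out. Since the members were chosen with this contrast known, these calls show only how the fit depends on the processing. The stricter filter left Mt3 and Slc30a1 untested.

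The MTF1 target count of 2 became 1 with DESeq2 and with the replicate block, and 1 to 2 with 1 library left out, each time through Gclc (adjusted p = 0.0885 with DESeq2 and 0.0586 with the block). Same-numbered libraries did not deviate together over all tested genes (correlations of their deviations from the group means of -0.0213, -0.0147 and -0.00056). Differently numbered libraries had correlations from -0.00835 to 0.0228. Counting noise of low genes enters these values, so they cannot tell whether the numbers pair the samples. With the replicate block 3936 genes passed. The block also ended the call of 9330175E14Rik (adjusted p = 0.0704).

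Over 42 non-member genes, 539 values under the alternatives held 21 sign changes in 8 genes, 0 of them past the threshold in either direction. These were Slc30a6 (-0.00567 at the stricter filter, -0.0162 to 0.0228 with 1 library left out), Slc39a7 (0.0363 with limma-voom, -0.304 to 0.213), Slc39a8 (0.00371 with library totals, -0.0425 to 0.0451), Nudt21 (0.00599 with library totals, 0.000918 without a filter, -0.0228 to 0.0339), Slc39a2 (-0.344 to 0.129), Slc39a3 (-0.000711 to 0.197), Slc39a4 (-0.0383 to 0.108) and Slc39a9 (-0.0133 to 0.0446). Slc39a1 passed at the stricter filter (adjusted p = 0.0284). The ratio of Mt1 to Mt2 with CpdA was 2.52 in FPKM and in TPM. Within a library these units differ by a constant, so the ratio had to be the same and tests nothing. Depth allows 0.148 CPM for a count of 0 in the smallest library (3 counts, counting error alone), and Mt3 and Slc30a1 are the members whose counts limit precision most.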
